A study of Mus musculus with 24 samples.

Results

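Genes of the conjugating detoxification enzymes and the paraoxonases were examined in lung RNA-Seq data of adult and aged mice. The group was chosen by gene symbol and comprised 37 protein-coding genes of the 23891 genes listed. There were 19 genes of the soluble glutathione S-transferases (GSTs; the cytosolic classes and the kappa class of mitochondria and peroxisomes), 3 of the microsomal GSTs (Mgst), 6 of the UDP-glucuronosyltransferase 1 family (Ugt1), 6 of the sulfotransferases (Sult) and 3 of the paraoxonases (Pon). The Ugt2 family had 0 listed genes. RNA came from the left lung lobe of 24 C57BL/6 samples in 4 groups. Naïve adult mice (n = 5) were 20 wk old by their labels, and naïve aged mice (n = 5, called saline here because the labels give saline as their treatment) were 80 wk old. Aged mice of the same label age received house-dust mite (HDM) intranasally at 50 µg per dose (n = 7), or HDM plus the glucocorticoid dexamethasone (Dex; n = 7), which was injected intraperitoneally each 72 h in doses of 4 mg/kg. Left lobes were taken 24 h after HDM was last given. Adult mice with HDM were not analysed here, so the effects of HDM and Dex below are those in aged lungs.

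GSTs join glutathione to reactive electrophiles, and their members differ in the compounds they accept. Ugt enzymes transfer glucuronic acid and Sult enzymes transfer sulfate to phenols, steroids, bile acids and drugs, which makes them water soluble and ready for export. Paraoxonases hydrolyze lactones and, in the case of PON1, the toxic oxon forms of organophosphates. Liver is the best known site of these enzymes. In the lung, club cells, the secretory cells of the small airways, are rich in enzymes that process inhaled and circulating chemicals.

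The libraries were not alike. The number of reads on genes was estimated as 10.1 to 33.1 M per sample, so that 3 reads corresponded to 0.0906 to 0.298 CPM (read counts scaled to the same total in every sample). The 7SL RNA, a small cytoplasmic RNA of the signal recognition particle, took 9.92% to 18.1% of the CPM in saline samples. It took 27.1% to 34.0% in the 5 male HDM samples and 14.96% to 15.4% in the 2 female HDM samples, with sex read from Xist and Ddx3y. In the HDM + Dex group it took 26.8% to 31.6% in the 3 males and 11.3% to 30.2% in the 4 females, and in adult sample 1 it took 42.0%. Because CPM add up to the same total, a high 7SL share lowers the CPM of every other gene, and comparisons were therefore repeated after median-of-ratios rescaling. The median log2 fold change of all tested genes was −0.23 in HDM vs. saline with CPM as deposited and −0.01 after rescaling. In aged vs. adult it was 0.19 and 0.01, and in the other comparisons it was between −0.19 and 0.03 as deposited.

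The sequences upstream of the 4 genes with the largest decreases after HDM are given first. Each is the stretch before the RefSeq start in GRCm38.p6, 5′ to 3′, without the bases that lie inside the annotated gene. Capitals mark matches to 3 letter patterns searched on both strands. These were TGACNNNGC, the core of the antioxidant response element, GCGTG, the core of the xenobiotic response element bound by the aryl hydrocarbon receptor, and AGAACA, an arm of the glucocorticoid response element.
Pon1, chr6:5193947-5194196, minus strand: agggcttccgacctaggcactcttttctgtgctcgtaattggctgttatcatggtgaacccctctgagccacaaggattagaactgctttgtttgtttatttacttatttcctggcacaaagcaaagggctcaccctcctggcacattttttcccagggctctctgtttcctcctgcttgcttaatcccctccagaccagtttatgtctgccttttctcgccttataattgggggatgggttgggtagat
Sult1d1, chr5:87569028-87569256, minus strand: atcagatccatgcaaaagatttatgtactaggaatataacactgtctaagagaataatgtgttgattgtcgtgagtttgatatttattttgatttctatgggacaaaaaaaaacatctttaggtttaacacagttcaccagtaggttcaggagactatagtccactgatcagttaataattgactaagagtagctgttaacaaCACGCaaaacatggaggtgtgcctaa
Gstm1, chr3:108017974-108018223, minus strand: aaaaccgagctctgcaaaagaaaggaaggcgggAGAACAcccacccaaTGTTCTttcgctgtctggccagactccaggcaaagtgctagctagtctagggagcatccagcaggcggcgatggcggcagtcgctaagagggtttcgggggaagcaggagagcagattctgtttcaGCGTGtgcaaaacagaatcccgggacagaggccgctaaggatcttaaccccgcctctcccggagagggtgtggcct
Gsta3, chr1:21240335-21240584, plus strand: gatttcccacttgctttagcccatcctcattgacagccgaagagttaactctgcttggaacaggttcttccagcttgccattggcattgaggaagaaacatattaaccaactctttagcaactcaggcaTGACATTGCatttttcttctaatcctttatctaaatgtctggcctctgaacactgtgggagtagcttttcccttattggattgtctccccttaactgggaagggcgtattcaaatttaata
In these windows Pon1 had no match, Sult1d1 had CACGC, the reverse complement of GCGTG, at 47 bases before the RefSeq start (the last 21 of them are not printed), and Gsta3 had TGACATTGC at 121 bases before the start. Gstm1 had GCGTG at 76 bases and both orientations of AGAACA at 217 and 202 bases before the start. Across the 43 upstream windows of 250 bases that matched 33 of the genes, 9.30% held TGACNNNGC, 25.6% held GCGTG and 20.9% held AGAACA. Across all 32851 windows of that length the shares were 10.2%, 28.2% and 16.1%. The letters of the windows are a description and were not tested.

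The genes covered a wide range of levels. Per kilobase of merged exon and over the 24 samples, Gstm1, a mu class GST, stood highest at 55.9 CPM per kb, followed by Mgst1, a GST of the endoplasmic reticulum and outer mitochondrial membrane, at 29.7 CPM per kb. Gsta4, which clears the lipid peroxidation product 4-hydroxynonenal, had 22.2 CPM per kb, and Gsto1, the omega class GST that reduces dehydroascorbate, had 17.7 CPM per kb. Pon3 was the highest of its family at 12.2 CPM per kb, Sult1a1, the main phenol sulfotransferase, of the Sult genes at 10.1, and Ugt1a6a, which acts on small planar phenols, of the Ugt1 genes at 2.65. In saline lungs Gstm1 was 91.2 ± 13.9 CPM per kb (SD, n = 5) and Mgst1 41.5 ± 5.57 CPM per kb, and their samples did not overlap on this scale. Pon1 at 9.17 ± 3.24 and Pon2 at 7.18 ± 0.53 CPM per kb in saline lungs differed by less than their spread. The lowest levels were those of Gsto2, Ugt1a1, Sult2b1, Sult6b1 and Sult2a1, whose means over the 24 samples were under 1 CPM. These 5 genes were left out of the tests, so that 32 of the 37 genes were tested.

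**Figure D1:**
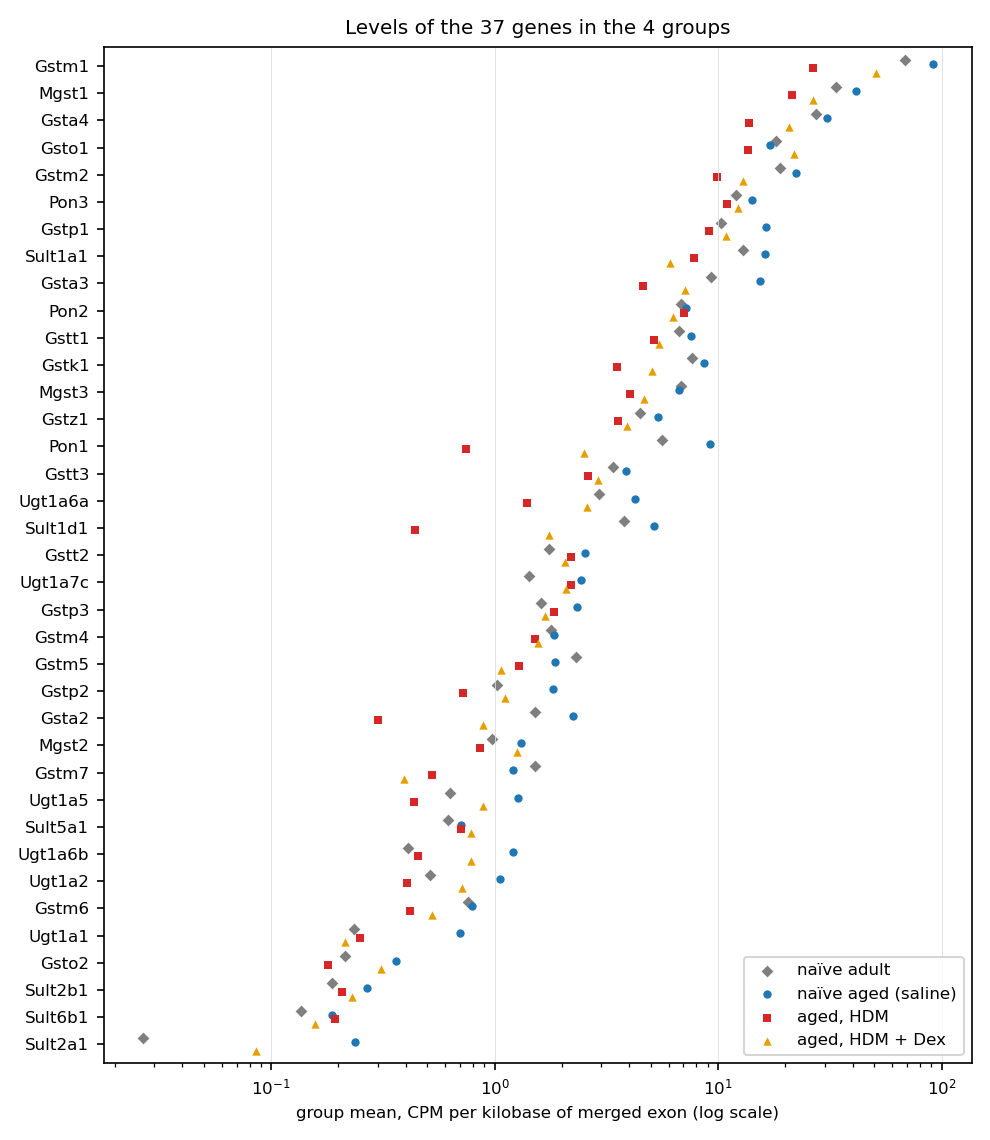
Mean level of each of the 37 genes in the 4 groups, in CPM per kilobase of merged exon on a log axis, ordered by the mean over the 24 samples. Gstm1 stands at the top and Sult2a1 at the bottom, and its HDM point is absent because all 7 HDM samples were at 0. The red HDM squares of Pon1 and Sult1d1 lie far to the left of the other groups.

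In HDM vs. saline, which asks what allergen challenge did in the aged lung, 19 of the 32 tested genes fell and 0 rose (limma, adjusted p < 0.05). Among all 17744 tested genes 25.3% were called, 21.2% lower and 4.04% higher. The falls reached 10 of 18 tested soluble GSTs, 2 of 3 Mgst genes, 4 of 5 Ugt1 genes, 2 of 3 Sult genes and 1 of 3 Pon genes. The median log2 fold change of the 32 genes was −0.74, beside −0.23 over all tested genes. After rescaling, 16 of the 32 fell and 0 rose, beside 11.5% lower and 11.0% higher over all genes, and the median was −0.56. Gstm7, Mgst3 and Ugt1a2 were the genes no longer called. With no filter on low values 20 of the 37 genes fell, beside 16.8% of all 23891 genes. In bulk lung RNA, fewer cells of a type and less RNA per cell cannot be told apart.

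**Figure D2:**
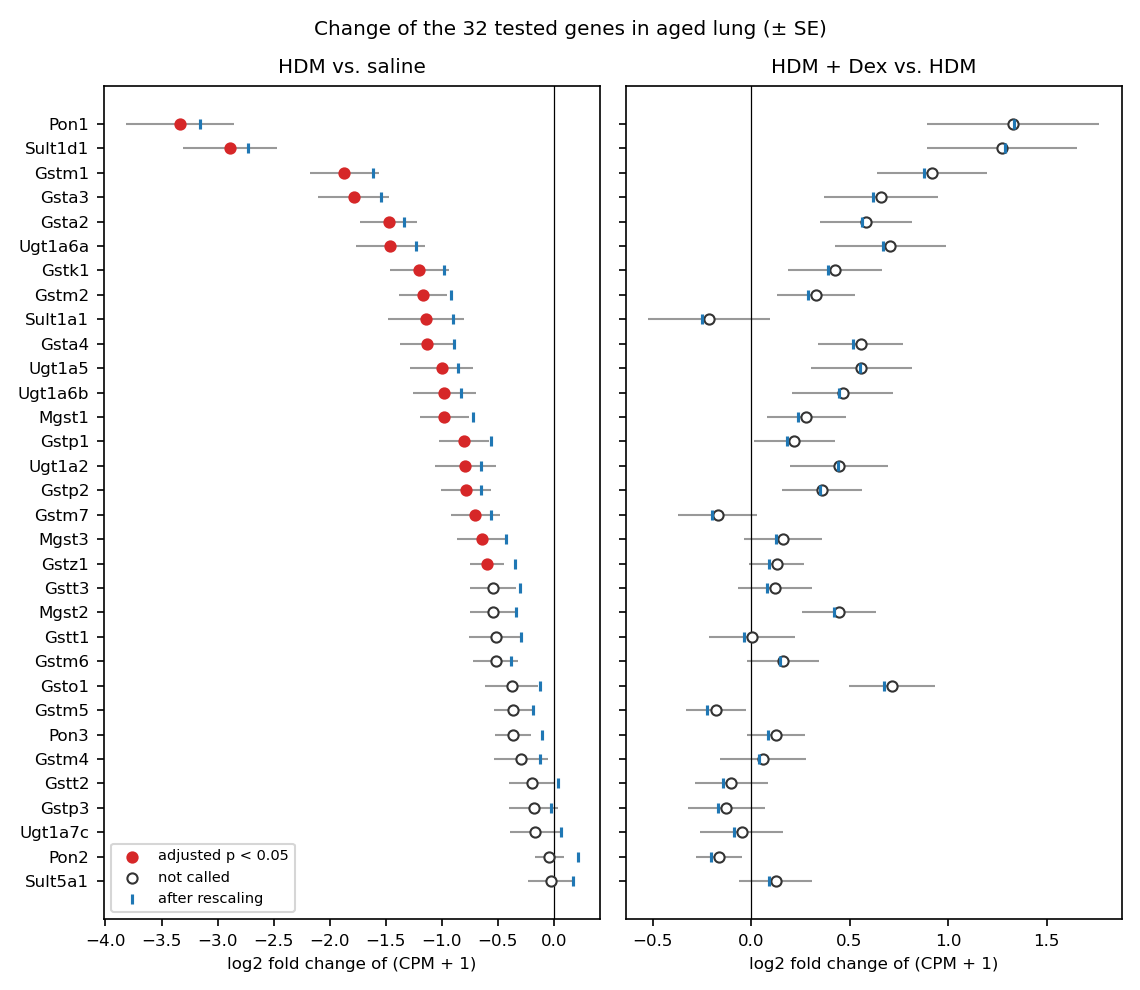
Log2 fold change of CPM + 1 for the 32 tested genes in HDM vs. saline (left) and HDM + Dex vs. HDM (right), with SE bars. The 2 panels share the HDM samples and their axes differ in range. Filled points passed an adjusted p of 0.05, and blue ticks give the value after median-of-ratios rescaling. On the left all 32 points but 28 of the 32 ticks lie below 0 and 19 points are filled, and on the right 25 points lie above 0 and none is filled.

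The 3 paraoxonases lie side by side on the minus strand of chromosome 6 (GRCm38), Pon1 at chr6:5168090-5193946, Pon3 at chr6:5220852-5256286 and Pon2 at chr6:5264147-5298455. Pon1, which is known as a liver-made enzyme carried on high-density lipoprotein, had 31.8, 40.2, 24.0, 17.8 and 19.1 CPM in the saline samples. In the HDM samples the lowest was 0, the median 1.14 and the highest 4.83 CPM. Every HDM sample was below every saline sample, and HDM sample 3, the library with the fewest reads, had no Pon1 read. That library also had the most genes at 0 of all samples, 3275, and the highest 7SL share of the aged samples, 34.0%. It gave the lowest HDM value of Sult1d1, Sult1a1, Gstm1, Gsta3, Mgst1 and Pon3 as well. The log2 fold change of Pon1 was −3.33 (SE 0.48, adjusted p = 0.000325), the largest fall among the 32 genes, and −3.16 after rescaling. The 2 female HDM samples had 4.03 and 4.83 CPM and the 2 female saline samples 24.0 and 17.8 CPM.

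Pon2, an intracellular paraoxonase made in many tissues, had 57.2, 47.1, 51.2, 52.6 and 55.4 CPM in saline lungs. After HDM the lowest, median and highest were 45.7, 46.8 and 63.1 CPM. The groups overlapped, with a log2 fold change of −0.04 (SE 0.13, adjusted p = 0.83), which turned to 0.21 (adjusted p = 0.059) after rescaling. Pon3, a lactonase, had 53.7, 44.9, 49.6, 41.9 and 48.9 CPM in saline lungs and 28.5, 38.6 and 42.4 CPM as lowest, median and highest after HDM. HDM samples were lower in 34 of 35 pairs of samples, and the log2 fold change of −0.36 (SE 0.16, adjusted p = 0.099) did not pass the threshold. Whether the changes of Pon1, Pon2 and Pon3 differ from one another was not tested.

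Sult1d1 (chr5:87554645-87569027, minus strand), a phenol sulfotransferase of rodents, came next. It had 13.6, 11.5, 19.2, 8.60 and 11.0 CPM in saline samples, and 0, 0.507 and 3.42 CPM as lowest, median and highest after HDM. HDM samples 1, 3 and 4 had 0.0856, 0 and 0.222 CPM, at or below their 3-read floors of 0.257, 0.298 and 0.222 CPM. No sample of either group overlapped the other, and the log2 fold change was −2.89 (SE 0.42, adjusted p = 0.000334). Sult1a1 had 21.3, 15.1, 31.2, 22.8 and 31.2 CPM in saline lungs and 2.59, 10.7 and 19.8 CPM after HDM, lowest, median and highest. Its groups overlapped, and it fell by 1.14 on the log2 scale (SE 0.34, adjusted p = 0.018). Sult5a1, at 3.13 CPM in saline and 3.11 CPM in HDM lungs on average, was the tested gene with the smallest difference. Sult2a1, which sulfates bile acids and steroids, was at 0 in all 7 HDM samples but also in 2 of 5 saline samples, with at most 0.769 CPM, so that no change could be read at this depth.

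Among the soluble GSTs, all 3 alpha class genes fell, together with 3 of 6 mu class, 2 of 3 pi class, the kappa and the zeta class genes. The omega class gene Gsto1 and the 3 theta class genes, Gstt1, Gstt2 and Gstt3, did not pass the test. Gstm1 (chr3:108012255-108017973, minus strand) had 145, 153, 140, 99.6 and 135 CPM in saline samples, and 20.4, 32.4 and 62.9 CPM as lowest, median and highest after HDM. The groups did not overlap, and the log2 fold change was −1.87 (SE 0.31, adjusted p = 0.000537). Gsta3 (chr1:21240589-21265661, plus strand), known in mice for the conjugation of aflatoxin epoxide, had 74.8, 75.2, 59.7, 38.2 and 87.5 CPM in saline and 7.96, 16.9 and 32.1 CPM after HDM, lowest, median and highest. It fell by 1.79 on the log2 scale (SE 0.32, adjusted p = 0.000851) with no overlap, although the groups overlapped after rescaling. Gsta2 was scarce, with 3.00, 3.85, 2.06, 2.04 and 2.30 CPM in saline samples and no read in 3 of the 7 HDM samples, whose highest value was 1.31 CPM. Its log2 fold change was −1.47 (SE 0.25, adjusted p = 0.000676), and 49.8% of its transcript windows of 50 bases also occur in other genes, mainly Gsta1, so that its reads may be shared. Of the windows of Gstp2, 54.3% occur in other genes, mainly Gstp1, and of those of Gstp1, 33.7%, mainly in Gstp2. The 2 pi class falls may thus not be separate. For Gstm1 the share was 18.9%.

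Mgst1 had 87.6, 93.7, 71.9, 71.3 and 93.5 CPM in saline lungs and 23.2, 40.5 and 61.5 CPM as lowest, median and highest after HDM. The groups did not overlap, and it fell by 0.98 on the log2 scale (SE 0.22, adjusted p = 0.0035). Ugt1a6a had 16.2, 29.9, 12.9, 13.0 and 19.3 CPM in saline and 3.25, 5.94 and 9.22 CPM after HDM, again without overlap, with a log2 fold change of −1.46 (SE 0.31, adjusted p = 0.0023). The Ugt1 genes lie on chromosome 1 with separate first exons and shared last exons, and 50.3% to 60.6% of their exon bases lie in exons of other Ugt1 genes. How the authors' counting divided reads of the shared exons is not given in the sources used here, so the Ugt1 genes were not independent of one another.

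Across all 32 tested genes, 14 had every HDM sample below every saline sample, beside 7.69% of all tested genes. After rescaling it was 11 genes, beside 4.07%. With only the samples whose 7SL share was under 25% (5 saline and 2 HDM, the latter the 2 females), 6 genes fell, beside 2.33% of all genes, which were Gsta2, Gsta3, Gstm1, Gstm2, Pon1 and Sult1d1. Pon1 then had a log2 fold change of −2.28 (adjusted p = 0.0024). In males (3 saline and 5 HDM) 23 genes fell, beside 28.1% of all genes, and in the 2 saline and 2 HDM females 0 were called by limma, with 4 at an unadjusted p < 0.05, beside 13.1% of all genes.

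**Figure D3:**
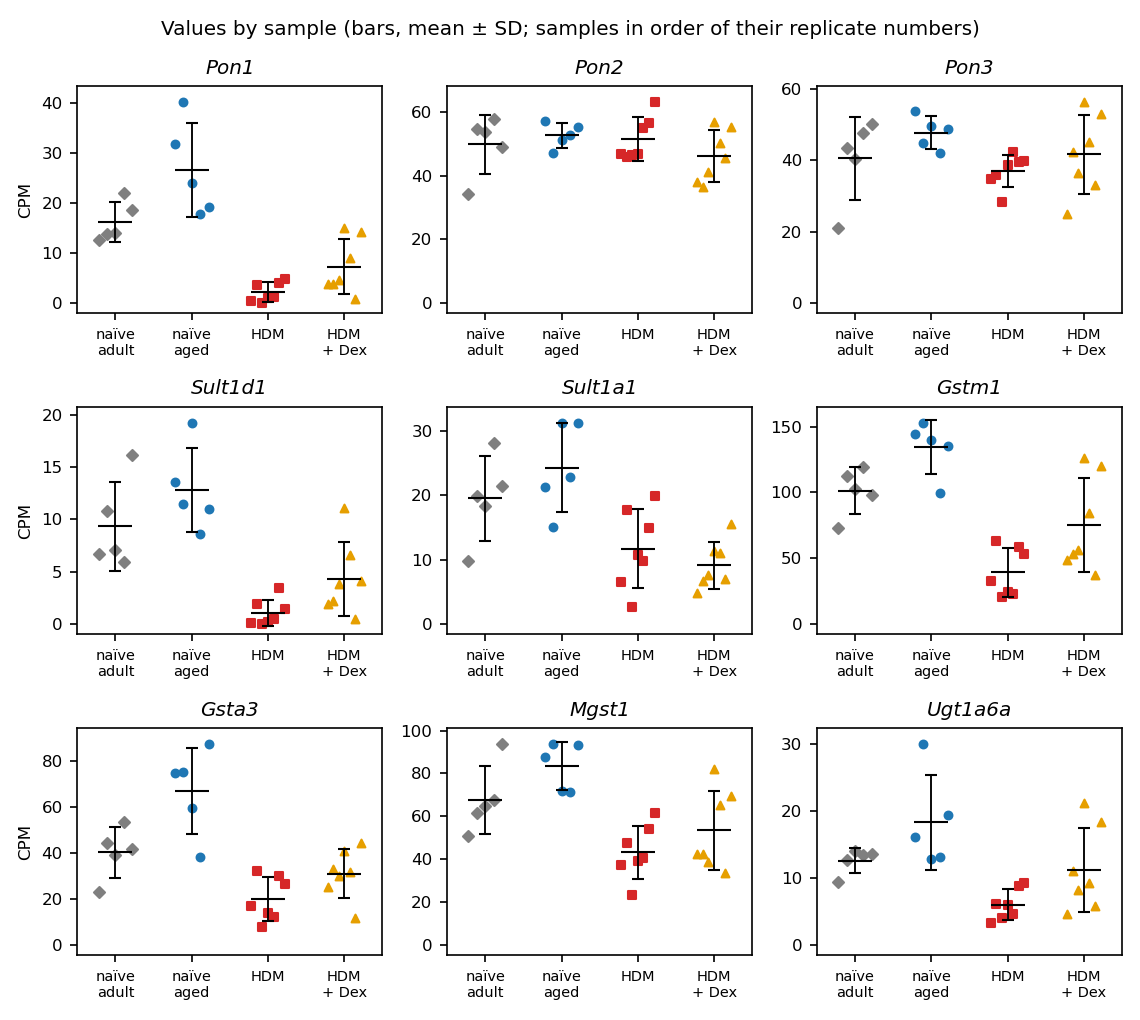
CPM of 9 genes in each of the 24 samples, with the group mean and SD as a bar and samples in the order of their replicate numbers. Pon1, Sult1d1, Gstm1, Gsta3, Mgst1 and Ugt1a6a show no overlap between HDM and saline, Pon2 shows the 2 groups overlapping, and the HDM + Dex triangles are widely spread, with those of Pon1 all below the saline samples.

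Markers of club cells, ciliated cells, heart muscle and adipocytes fell in the same comparison. All 6 club cell markers present in the table fell in HDM vs. saline, also after rescaling, and their summed level was 4725 to 6767 CPM in saline, 302.7 to 2819 CPM in HDM and 582.5 to 5129 CPM in HDM + Dex samples. Scgb1a1, the secretoglobin that defines club cells, had a log2 fold change of −2.46 (SE 0.48, adjusted p = 0.0014). All 10 ciliated cell markers fell (9 after rescaling), from a sum of 365.4 to 518.6 CPM to 87.5 to 321.8 CPM. All 8 heart muscle markers fell as well, from a sum of 637.5 to 1206 CPM to 31.3 to 509.1 CPM, as did 3 of 3 tested adipocyte markers, whose list had a median sum of 16.2 CPM in saline and 1.82 CPM in HDM samples. None of the 8 type 2 alveolar cell markers was called, and 4 of 7 type 1 alveolar cell markers fell. Leukocyte markers moved in both directions, with 2 of 10 higher and 2 lower (4 and 1 after rescaling), 4 of 7 endothelial markers fell (2 after rescaling), and 1 of 8 large airway markers, Bpifa1, fell. Hepatocyte markers were near 0, with 3 of 10 in the table and a sum of at most 2.71 CPM in any sample. The part of club, ciliated, heart muscle and adipocyte RNA in the falls of the enzymes was not tested.

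Set against the club cell markers of the same sample, the values differed between genes. Per 1000 CPM of the club cell markers, Pon1 had 3.37 to 7.02 CPM in saline samples, 0 to 2.37 in HDM and 1.36 to 3.28 in HDM + Dex samples. Sult1d1 had 1.82 to 3.17 in saline and 0 to 1.23 in HDM samples, of which samples 1, 3 and 4 held at most 3 reads. For both genes the HDM samples lay below all saline samples on this ratio too. Gstm1 had 21.1 to 26.7 in saline and 20.9 to 67.3 in HDM samples, and Mgst1 had 11.9 to 16.5 in saline and 19.1 to 76.6 in HDM samples. Mgst1 thus lay higher on the ratio after HDM although its CPM fell. Scgb1a1 made up most of the marker sum, at means of 4635 of 5788 CPM in saline and 1046 of 1283 CPM in HDM. Mean CPM in saline and HDM were 853 and 158 for Cyp2f2 and 187.5 and 31.8 for Scgb3a2. They were 72.0 and 31.0 for Aldh1a7, 29.9 and 11.4 for Cckar, and 9.38 and 4.12 for Cldn10. The ratios thus follow mainly Scgb1a1, and ratios to the other markers were not taken. They show unequal change within a library and were not tested.

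**Figure D4:**
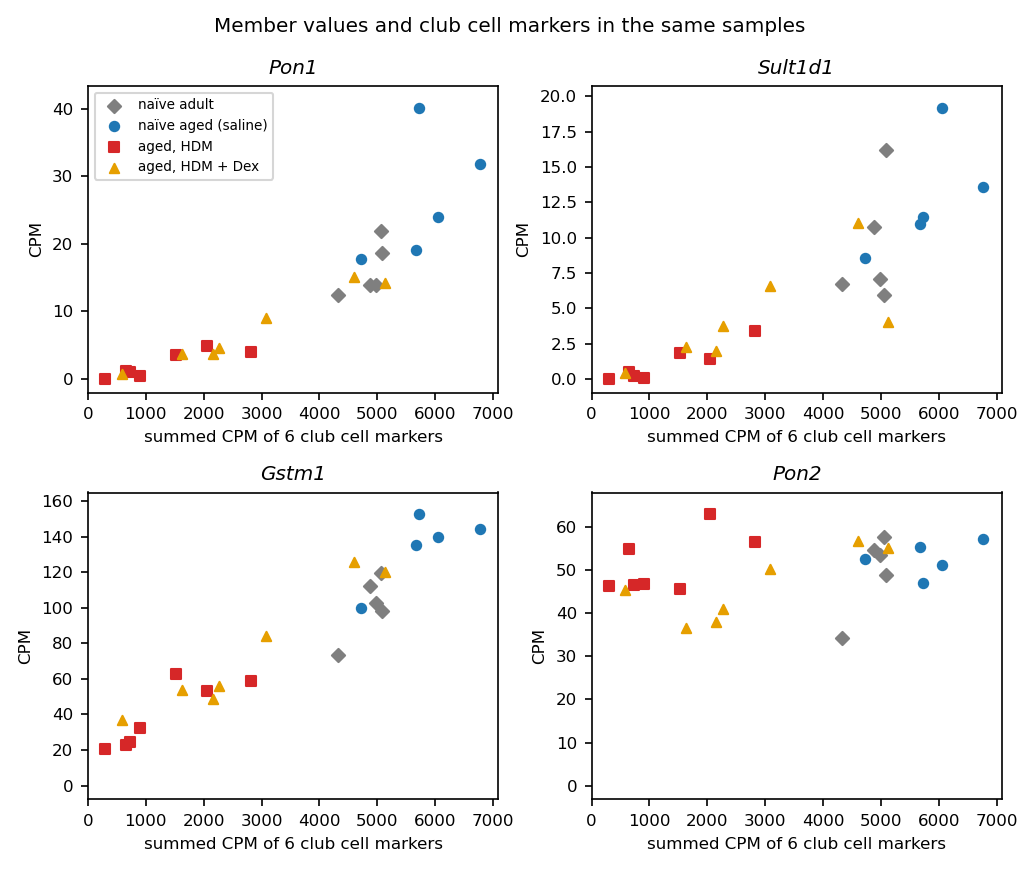
CPM of Pon1, Sult1d1, Gstm1 and Pon2 in each of the 24 samples against the summed CPM of 6 club cell markers in the same sample. Pon1, Sult1d1 and Gstm1 are low where the club cell markers are low, in HDM samples and in HDM + Dex sample 6, whereas Pon2 lies between 34.3 and 63.1 CPM in every sample. Both axes come from the same libraries.

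Other genes of conjugation were counted from fixed lists in the same comparison. Over all tested genes 21.2% were lower and 4.04% higher, and 11.5% and 11.0% after rescaling. In the list of glutathione supply and turnover, 1 of 12 tested genes was lower and 0 higher, namely Gss, the glutathione synthetase, with a log2 fold change of −0.68 (SE 0.16, adjusted p = 0.0051). The median of that list was −0.23, equal to that of all genes. In the list of UDP-glucuronate and sulfate donors, 2 of 11 were lower, Papss2, a synthase of the sulfate donor PAPS, at −0.60 (adjusted p = 0.026) and Impad1, a Golgi phosphatase of its product, at −0.41 (adjusted p = 0.045), and neither was called after rescaling. Among other conjugating enzymes 4 of 11 were lower and 0 higher. Inmt, an N-methyltransferase abundant in lung, went from a mean of 545 CPM in saline to 195.8 CPM (log2 fold change −1.75, SE 0.35, adjusted p = 0.0016). Ephx1, the microsomal epoxide hydrolase, was at −1.17 (adjusted p = 0.0074), Acsm1, an acyl-CoA synthetase, at −1.17 (adjusted p = 0.020) and Mettl7a1, a methyltransferase, at −0.96 (adjusted p = 0.0025). After rescaling, Nnmt, the nicotinamide N-methyltransferase, was called higher.

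In the list of conjugate efflux and deconjugation, Abcc3, an exporter of glucuronides, fell by 0.88 on the log2 scale (SE 0.21, adjusted p = 0.0054). Gusb, the lysosomal enzyme that splits glucuronides, rose from a mean of 28.9 CPM to 53.8 CPM (log2 fold change 0.82, SE 0.20, adjusted p = 0.0054). Of 14 tested regulators, 4 were lower and 0 higher, beside 21.2% of all genes lower, and 2 were lower after rescaling, beside 11.5%. Ppara, a nuclear receptor for fatty acids, fell by 1.12 (SE 0.26, adjusted p = 0.0045) and Mafk, a partner of NRF2, by 0.74 (adjusted p = 0.0040), while Nr3c1, which encodes the glucocorticoid receptor, was called lower without rescaling but not with it. Nfe2l2, which encodes NRF2, was at −0.37 (SE 0.18, adjusted p = 0.13).

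HDM + Dex vs. HDM, which shares the HDM samples with the previous comparison, asks what Dex did in challenged aged lungs. Of the 32 tested genes, 0 passed the adjusted threshold of limma, beside 0.964% of all genes (0.75% higher), and 10 had an unadjusted p < 0.05, beside 13.5%. The log2 fold change was above 0 for 25 of the 32 genes, with a median of 0.25 beside 0.03 over all genes. After rescaling 1 gene, Gstm1, was higher, beside 2.85% of all genes called and 1.98% called higher, and with sample quality weights Gstm1, Gsto1 and Sult1d1 were higher, beside 2.37% of all genes. No gene separated the groups without overlap, which 0.147% of all genes did with Dex higher and 0.0789% with Dex lower.

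The HDM + Dex samples were spread widely. Pon1 had 0.790, 4.55 and 15.1 CPM as lowest, median and highest, and HDM samples reached 4.83 CPM. Samples 4, 5 and 7 carried the high values, with 15.1 CPM in sample 4, 14.2 CPM in sample 7 and 8.98 CPM in sample 5. These were females with 7SL shares of 11.3% to 18.9%, whereas the 3 males had 3.70 to 4.55 CPM and the fourth female, sample 6, with a share of 30.2%, had the lowest value. The log2 fold change of Pon1 was 1.33 (SE 0.44, adjusted p = 0.15). In males alone it was 1.35 (adjusted p = 0.094), since male HDM samples had 0 to 3.61 CPM. The 2 female HDM samples, at 4.03 and 4.83 CPM, lay inside the range of the female Dex samples, 0.790 to 15.1 CPM.

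Sult1d1 had 0.431, 3.78 and 11.1 CPM with Dex, lowest, median and highest, beside 0 to 3.42 CPM after HDM alone. Its log2 fold change was 1.27 (SE 0.38, adjusted p = 0.11). Gstm1 had 36.9, 56.0 and 126 CPM, with samples 4 and 7 at 126 and 120 CPM inside the range of saline lungs and the others below it. Its log2 fold change was 0.92 (SE 0.28, adjusted p = 0.11), and 0.88 (adjusted p = 0.037) after rescaling. Both means were higher with Dex, but the groups overlapped, and the call of Gstm1 depended on the scaling.

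Ugt1a6a had 4.60, 9.20 and 21.2 CPM with Dex, and a log2 fold change of 0.71 (SE 0.28, adjusted p = 0.24). Mgst1 had 33.5, 42.6 and 82.3 CPM, and 0.28 (SE 0.20, adjusted p = 0.60). Neither difference passed the test, and both groups overlapped. Pon2 at 36.6, 45.4 and 57.0 CPM and Pon3 at 25.0, 42.4 and 56.3 CPM had log2 fold changes of −0.16 (SE 0.12, adjusted p = 0.61) and 0.13 (SE 0.15, adjusted p = 0.78). Sult1a1 was the gene with the largest negative value, −0.21 (SE 0.31, adjusted p = 0.84), at 4.82, 7.64 and 15.5 CPM. Gsto1, chosen after its values were seen, had 28.9, 44.5 and 68.7 CPM with Dex beside 16.8, 24.0 and 48.9 CPM after HDM alone, with a log2 fold change of 0.72 (SE 0.22, adjusted p = 0.11). All 3 male Dex samples of Gsto1, at 44.5 to 50.7 CPM, were above all 5 male HDM samples, at 16.8 to 34.9 CPM. In females Gsto1 overlapped, at 28.9 to 68.7 CPM in 4 Dex samples and 29.3 to 48.9 CPM in 2 HDM samples. In males alone Gsto1 and Sult1d1 were called higher, beside 1.21% of all genes. In aged females alone 0 of the 32 genes were called by limma, beside 0.0169% of all genes. Their median log2 fold change was 0.06, beside −0.12 over all genes, and 13 of the 32 were below 0. With 2 female HDM samples the females cannot settle whether Dex acted there, and a difference between the sexes was not tested.

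Ciliated cell markers moved in the same comparison, with 6 of 10 higher (9 after rescaling) and sums of 205.1 to 496.4 CPM with Dex. Heart muscle markers summed to 70.9 to 1386 CPM with Dex, with 0 of 8 called by limma (1 after rescaling) and 7 at an unadjusted p < 0.05. Large airway markers had a median log2 fold change of 1.02, with 0 of 8 called by limma and 5 at an unadjusted p < 0.05, and summed to 27.7 to 590.1 CPM after HDM alone and 235.5 to 919.8 CPM with Dex. The sum of club cell markers was highest in HDM + Dex samples 7, 4 and 5, at 5129, 4602 and 3080 CPM, and lowest in sample 6, at 582.5 CPM. None of the 6 club cell markers was called by limma, 5 had an unadjusted p < 0.05, and 1 was called after rescaling. Their part in the higher values of Pon1, Sult1d1 and Gstm1 was not tested. In the 5 lists of other conjugation genes and regulators, 0 genes were called by limma, with or without rescaling. Of all genes 2.85% and 0.964% were. At an unadjusted p < 0.05 without rescaling there were 2 of 12 in the glutathione list and 2 of 11 other conjugating enzymes. There were 1 of 9 in the efflux list, 0 of 11 in the donor list and 0 of 14 regulators, beside 13.5% of all genes.

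HDM + Dex vs. saline shares samples with both comparisons above and sets challenged lungs treated with Dex against unchallenged ones. In this comparison 5 of the 32 genes fell and 0 rose, beside 1.89% of all genes called, 1.44% lower and 0.445% higher. Pon1 was at −2.003 (SE 0.48, adjusted p = 0.037) and was the only gene with all HDM + Dex samples below all saline samples, which 1.87% of all genes showed. After rescaling, Pon1, Gstm2 and Sult1a1 were so, beside 1.07% of all genes. Sult1d1 was at −1.61 (SE 0.42, adjusted p = 0.047), Sult1a1 at −1.35 (SE 0.34, adjusted p = 0.043), Gstm7 at −0.87 (SE 0.22, adjusted p = 0.043) and Gstm2 at −0.84 (SE 0.22, adjusted p = 0.047). These adjusted p-values lay close to the threshold, and after rescaling 1 gene, Gstm2, was called, beside 0.445% of all genes called lower. Gstm1 at −0.95 (SE 0.31), Mgst1 at −0.70 (SE 0.22) and Ugt1a6a at −0.75 (SE 0.31) had adjusted p-values of 0.10, 0.099 and 0.18. Pon2 and Pon3 were at −0.20 (SE 0.13, adjusted p = 0.35) and −0.23 (SE 0.16, adjusted p = 0.38), and Pon2 turned to 0.0097 after rescaling. Among the cell markers, 2 of 3 tested adipocyte markers, Cfd and Plin1, were lower (0 by limma after rescaling, with 3 at an unadjusted p < 0.05). Club cell markers had a median of −1.19, with 0 of 6 called by limma and 5 at an unadjusted p < 0.05, and heart muscle markers a median of −1.07, with 0 of 8 called and 6 at an unadjusted p < 0.05. Their part in the falls of the enzymes was not tested. In the pathway lists only Papss2 was called, lower with and without rescaling. The number called ranged from 0 to 11 when single samples were left out, with 11 without HDM + Dex sample 4 and 9 without sample 7. It was 0 without any one of saline samples 1, 3, 4 and 5 or HDM + Dex samples 1, 2, 3 and 6, 1 without saline sample 2, and 2 without HDM sample 4 or 5. Without HDM + Dex sample 4 or 7, 574 and 643 of all 17744 tested genes were lower, beside 256 in the main fit. In the fits that left 0 of the 32 genes, 66 to 156 of all genes were called, beside 335 in the main fit.

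Aged vs. adult compares the 5 naïve aged with the 5 naïve adult samples. Of the 32 genes 1 rose and 0 fell, beside 0.654% of all genes called, 0.592% higher and 0.062% lower. The median log2 fold change was 0.32 beside 0.19 over all genes, and 9 genes had an unadjusted p < 0.05 beside 11.2% of all genes. The gene called was Ugt1a6b, at 1.41, 0.894, 0.751, 1.15 and 0.682 CPM in adult and 2.36, 3.57, 3.01, 2.35 and 3.08 CPM in aged samples. The groups did not overlap for 2 of the 32 genes, Ugt1a6b and Gsta2, beside 2.91% of all genes in this direction. Gsta2, which was not called, had at most 1.93 CPM in adult and at least 2.04 CPM in aged samples. The log2 fold change of Ugt1a6b was 0.97 (SE 0.19, adjusted p = 0.018). After rescaling it was 0.80 with an adjusted p of 0.090 and the groups overlapped, so that 0 of the 32 genes were called by limma, beside 1.07% of all genes. Other genes, mainly Ugt1a6a, hold 79.8% of its transcript windows. The call was also lost without adult sample 2, adult sample 3 or saline sample 2. All 5 adult samples were female and 3 of the 5 aged samples were male, so that age and sex cannot be told apart for those 3, and among females alone 0 genes were called by limma, with 1 at an unadjusted p < 0.05, beside 8.03% of all genes.

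Pon1 had 12.5, 13.9, 13.9, 21.95 and 18.7 CPM in adult lungs, and the aged lungs were higher in 22 of 25 pairs of samples, but the log2 fold change of 0.65 (SE 0.24, adjusted p = 0.30) did not pass the test. Sult1d1 (0.45, SE 0.26, adjusted p = 0.51), Gstm1 (0.41, SE 0.19, adjusted p = 0.45) and Ugt1a6a (0.45, SE 0.23, adjusted p = 0.47) were likewise above 0 without passing it. The values of Mgst1, Sult1a1, Pon3 and Pon2 were 0.32, 0.33, 0.29 and 0.10, with adjusted p-values of 0.53 to 0.81, and Pon2 turned to −0.11 after rescaling. In the pathway lists Slc7a11, the cystine importer that feeds glutathione synthesis, was the only gene called, with a mean of 2.94 CPM in adult and 15.8 CPM in aged lungs (log2 fold change 1.99, SE 0.32, adjusted p = 0.0056), also after rescaling. Among the cell markers, 3 of 10 leukocyte markers, Jchain, S100a8 and S100a9, were higher in aged lungs, with a median log2 fold change of 0.83 for the list and sums of 90.4 to 318.5 CPM in adult and 394.6 to 1211 CPM in aged samples. Of the 8 large airway markers 1, Bpifb1, was lower (2 after rescaling), with a median of −1.07 and sums of 459.2 to 975.4 CPM in adult and 184.3 to 656.4 CPM in aged samples. Their part in the values of the enzymes was not tested.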

How the data were processed

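Lung RNA of 24 mouse samples in 4 groups, taken from the sample labels, was analysed. By the study's methods, the authors made stranded mRNA libraries and processed paired-end reads with a Picard-STAR-limma pipeline. The submitters' processing notes name FastQC, STAR, DESeq2 and mm9, but the deposited gene positions are those of GRCm38, which was used here. The handling of strand and of shared exons is not given in the sources used here. The authors deposited CPM with a constant of 0.0001 added to each value, which was subtracted. Since 80.5% to 85.3% of low values were whole multiples (tolerance 0.05) of the value taken as 1 read, reads were not recovered. Depth limits low genes, and floors of 3 reads cover counting error only.

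The 17744 genes averaging 1 CPM or more over all samples were tested on log2(CPM + 1) with limma 3.58.1 in R 4.3.3 (eBayes with trend, Benjamini-Hochberg over all of them, threshold 0.05), with fold changes on that scale, which understates those of scarce genes. The 19 aged samples and the 10 naïve samples were fitted separately. The step was tested on simulated data. Tables and figures used Python 3.11.15, pandas 2.3.3, numpy 2.4.6 and matplotlib 3.10.9. Positions, exon lengths and shared windows of 50 bases came from GENCODE M21, and promoters from RefSeq (GRCm38.p6).

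Named in each comparison were up to 6 called genes with the largest fold change in each direction, Pon1, Pon2, Pon3, Sult1d1 and the most abundant gene of each family. The members and the gene lists were chosen with earlier results of these data known. The ratios to club cell markers, the values by sex and 6 of the alternatives were added after seeing the data. Alternatives concerned the pseudocount, filter, scaling, samples, covariates, weights and threshold. A deposited text file without measurements was not used. Some genes of the pathway lists are not reported here by name.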

Additional observations from a re-analysis of the deposited data

Results flagged for a closer look

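Of 52 groups of samples examined (13 named genes in 4 groups), in 4 the lowest sample stood well apart, and chance alone marks about 1 in 20. Gsta3 had 11.7 CPM in HDM + Dex sample 6 and 25.3 to 44.5 CPM in the other 6 samples of that group. Gstm1 had 99.6 CPM in saline sample 4 and 135 to 153 CPM in the others. Adult sample 1 was low in 2 genes, with 20.9 CPM of Pon3 beside 40.5 to 50.2 CPM and 9.38 CPM of Ugt1a6a beside 12.6 to 14.01 CPM in the other adult samples. Adult sample 1 also had the highest 7SL share of all samples, 42.0%, and its part in these values was not tested.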

How the results depend on the processing

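In HDM vs. saline, 16 of 20 alternatives left the number of fallen genes within 1.5 times of 19. The number was 6 with the 7SL share as a covariate, 6 with only samples below a 7SL share of 25%, 10 with a log2 fold change of at least 1 also required, and 0 in aged females only. Of all 17744 tested genes, 399 were lower with the covariate, 414 below the share of 25% and 2 in aged females. In the main fit 3765 were lower, and 1077 were called in either direction at a log2 fold change of at least 1. Leaving out single samples gave 16 to 22, beside 2446 to 4642 of all genes lower. In HDM + Dex vs. HDM, 1 gene was called after median-of-ratios rescaling, after quantile normalization, without the 14 7SL and rRNA genes, and after rescaling with a sex covariate. Among all genes, 318 to 372 were called higher in these settings. With the 7SL share as a covariate and in males only 2 were called, and with sample quality weights 3. Among all genes, 313, 214 and 420 were then called higher. Leaving out single samples gave 0 to 3, with 3 without HDM + Dex sample 6, 2 without HDM sample 6 and 1 without HDM sample 2. In those fits 344, 385 and 295 of all genes were called higher, beside 133 in the main fit.

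In HDM + Dex vs. saline, where 5 genes were called, the number was 0 with a pseudocount of 0.1, without the 7SL and rRNA genes, with the 7SL share as a covariate, with only samples below a share of 25% and in aged females only. It was 1 with no filter and after rescaling, 2 after quantile normalization and without the mean-variance trend, 3 after rescaling with only the 2 groups compared and 3 at a log2 fold change of at least 1. It was 12 with a sex covariate, where 1749 of all 17744 tested genes were lower, beside 256 in the main fit. It was 19 both with sample quality weights and in males only, where 28.2% and 11.4% of all genes were lower. Leaving out single samples gave 0 to 11. In aged vs. adult the single call was lost, leaving 0, with a mean of at least 5 CPM required (which leaves the gene out), after rescaling, quantile normalization or without the 7SL and rRNA genes, with all 24 samples in one fit, with a sex covariate (also with rescaling), in naïve females only (also with rescaling) and at a log2 fold change of at least 1. Leaving out single samples gave 0 or 1. The causes of the changed counts were not tested. The samples below a 7SL share of 25% included no male HDM sample, so sample number, sex and 7SL share cannot be told apart there. Of 37 fold changes of named genes, 11 took the other sign under at least 1 alternative, and 0 of these had been called. They were those of Pon2 and Pon3 in HDM vs. saline, HDM + Dex vs. saline and aged vs. adult, of Pon3 in HDM + Dex vs. HDM, and of Gstm1, Mgst1, Sult1a1 and Ugt1a6a in aged vs. adult.

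The samples share only replicate numbers. The correlations of same-numbered samples ran from −0.24 to 0.41, with 3 of 22 over 0.1, and a replicate block gave 22, 0, 7 and 1 called genes in the 4 comparisons in the order above. With that block 5644, 8, 898 and 168 of all 17744 tested genes were called. The labels do not say that each sample is a separate animal, so that p-values measure the spread between these samples.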
